A study of Mus musculus with 5 samples.

Results

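The 46 genes described here act in mitosis, from the kinases that open it to the proteins that part the daughter cells, and their RNA was measured in mouse sarcoma cells in which doxycycline controls the EWS/ATF1 fusion gene. They were listed by gene symbol and found through the RefSeq accession of each probe, and the brightest probe over all arrays stood for its gene. All 46 were on the array, among 20016 named genes. Total RNA from tumor cell lines was hybridised to 5 one-colour arrays, 1 for each of 5 groups: at 3 h a control culture, a low dose and a high dose of doxycycline, and at 48 h a control culture and the high dose. Each line came from a soft tissue sarcoma of a mouse with EWS/ATF1 switched on, on a mixed C57/BL6, 129 and ICR strain background. The cells of all 5 groups, controls included, carry the doxycycline-inducible EWS/ATF1 alleles. The labels used here leave out the doxycycline concentrations, whether the controls received any, and which tumour line gave each array, so lines may differ between the groups. No group has a replicate, so no difference has a p-value, and a difference is called 2-fold only by its size.

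Mitotic genes are transcribed late in the cell cycle and are quiet in resting cells. Many of their promoters hold a cell cycle homology region, CHR, which is bound by the MuvB complex, and CCAAT boxes, which are bound by NF-Y. MuvB joins a repressor in resting cells, as part of the DREAM complex, and joins the activators B-Myb and FoxM1 in dividing cells. RNA levels of these genes therefore serve widely as markers of proliferation in tumours.

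A level here is the log2 processed signal of a probe minus the 75th percentile of its array, so a level of 0 equals that percentile and a difference of 1 is 2-fold. Per array, 30884 to 33427 of 55681 probes were above background, which means that at least 0.5 of a probe's spots were marked so by the scanner software. The 75th percentile itself was 420 on the 48 h high-dose array and 556 to 725 on the others. Reference genes for RNA amount had 0 of 10 called at 2-fold at 48 h, with a median difference of 0.43 between high dose and control. Of the 10, 8 were higher at the high dose, up to 0.9997 for Pgk1. Their summed level was 3174.5 times the 75th percentile on the 48 h high-dose array and 2074 to 2322 on the others. Of 8 neural crest and Schwann cell markers, 5 were above background on each array, among them S100b and Sox10, while Foxd3 and Erbb3 were above background on none.

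The 48 h high-dose array stood apart in its markers of other cell types. The macrophage list had 11 of 12 genes above background there, with a summed level of 45.9 times the 75th percentile. On the other 4 arrays the summed level ranged from 7.30 to 9.02. Genes above background numbered 9, 11 and 6 for control, low and high dose at 3 h, and 6 in the 48 h control. Between the 48 h arrays, 5 of 6 measured macrophage genes were at least 2-fold higher at the high dose. The median of the 6 was 1.39, and Adgre1 was lowest at 0.59. The lysosomal protease gene Ctss was 6.09 higher than in the 48 h control and the receptor gene Csf1r 2.41 higher. Against the 3 h control, however, Ctss differed by -3.89 in the 48 h control and by -4.01 at the 3 h high dose. Ptprc, which encodes the leukocyte antigen CD45, was not above background on either 48 h array. All 10 fibroblast and mesenchyme genes were above background on every array, but their summed level was 53.6 on the 48 h high-dose array and 101 to 114 on the others. Of these 10 genes, 8 were at least 2-fold lower than in the 48 h control. Their median was -2.26, and they ran from -5.58 for Postn to -0.82 for Vim. Of 5 neural crest and Schwann cell genes measured on both 48 h arrays, 2 were at least 2-fold lower and 3 within 2-fold. Their median was -0.37, and they ran from -6.45 for the neurotrophin receptor gene Ngfr to 0.72 for S100b. The summed level of all 8 genes of that list was 147 on the 48 h high-dose array and 98.5 to 114 on the others. Per array, 2 to 3 of 5 endothelial genes and 3 to 4 of 6 melanocyte genes were above background, while the endothelial genes Cdh5 and Emcn and the melanocyte genes Dct and Tyrp1 were so on no array. The part of these marker differences in the results that follow was not tested. In RNA from whole cultures, more dividing cells and more of these transcripts per cell cannot be told apart.

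Mitosis genes were far higher after 48 h of the high dose than in the 48 h control. Of the 46, 36 were above background on both arrays, and 36 of 36 were at least 2-fold higher, against 9.94% of 13739 genes measured on both, and 0 were lower, against 10.1%. The median difference was 4.62, a 24.7-fold difference, whereas the median of all measured genes was 0.052. Differences of the members ran from 1.51 for the kinesin gene Kif18a to 6.86 for the proliferation marker Mki67, and 21 of the 36 exceeded 16-fold, against 0.590% of all measured genes. The other 10 genes were not above background in the 48 h control, so they have lower bounds only, and all 10 bounds exceeded 2-fold. Among all genes with such a bound the share past 2-fold was 76.4%, because a gene is bounded here only if it is bright on the high-dose array. The scanner's error for a member's difference had a median of 0.21, with a highest value of 0.301 among the 36. This error covers the spot and the scan, not the variation between cultures.

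The members crowded the top of the ranking of measured differences. They made up 6 of the 20 genes with the largest increase over the 48 h control, 18 of the top 50 and 21 of the top 100. Mki67 ranked 3 and Ube2c ranked 4 among 13739 genes. The lowest rank among the 36 was 736, for Kif18a. On the 48 h high-dose array 46 of 46 members had their highest level of all 5 arrays, and 44 of 46 stood at least 2-fold above the next highest array, signals below background included. The exceptions were the centromere genes Cenpa, with a gap of 0.51, and Cenpf, with a gap of 0.05. The 33 members above background on all 5 arrays were thus all highest there, as were 40.9% of 13472 genes so measured. For these 33 the gap was at least 2-fold for 32, against 5.76% of those genes.

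**Figure D1:**
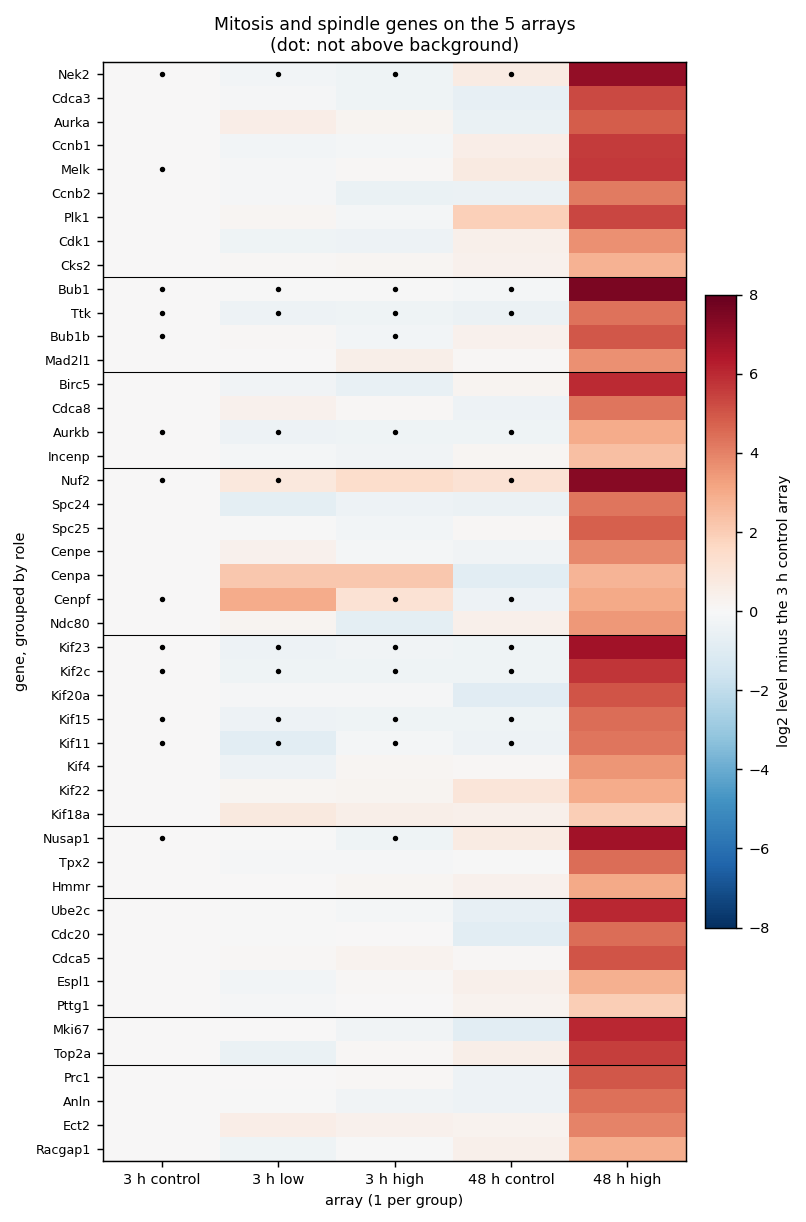
Each row is 1 of the 46 mitosis genes, grouped by role, and each column is 1 of the 5 arrays; colour gives the log2 level minus that of the 3 h control array, and a dot marks a gene not above background. The 48 h high-dose column is red for all 46 genes, and Cenpa and Cenpf also stand out at 3 h.

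Promoter sequences were searched for short motifs, which many but not all of the members hold. Windows from 250 bases before to 50 bases after the transcription start were taken from RefSeq, build GRCm38.p6, for 41 of the 46 genes (43 windows); Aurkb, Incenp, Kif20a, Spc24 and Tpx2 had no entry. The 250 bases before the start are printed 5′ to 3′ on the gene's own strand, with CHR and CCAAT matches in capitals. Mki67, Ube2c, Prc1 and Cdc20 were picked among members holding both a CHR and a CCAAT match before the start. Of those measured on both 48 h arrays, they had the largest 48 h differences. Members with large differences but without that pair, such as Nusap1 and Birc5, were passed over. Top2a, next by the same rule, is not printed. Cenpa was added because its RNA followed another course over the 5 arrays. These 5 printed stretches do not stand for all members. Their positions are chr7:135716380-135716629 on the minus strand for Mki67, chr2:164769679-164769928 on the plus strand for Ube2c, chr7:80294226-80294475 on the plus strand for Prc1, chr4:118437344-118437593 on the minus strand for Cdc20 and chr5:30666636-30666885 on the plus strand for Cenpa.
Mki67: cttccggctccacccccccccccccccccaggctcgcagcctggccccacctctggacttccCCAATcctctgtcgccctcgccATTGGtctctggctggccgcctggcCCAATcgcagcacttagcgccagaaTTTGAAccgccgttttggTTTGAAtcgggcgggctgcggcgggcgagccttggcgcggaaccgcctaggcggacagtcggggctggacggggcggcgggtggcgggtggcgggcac
Ube2c: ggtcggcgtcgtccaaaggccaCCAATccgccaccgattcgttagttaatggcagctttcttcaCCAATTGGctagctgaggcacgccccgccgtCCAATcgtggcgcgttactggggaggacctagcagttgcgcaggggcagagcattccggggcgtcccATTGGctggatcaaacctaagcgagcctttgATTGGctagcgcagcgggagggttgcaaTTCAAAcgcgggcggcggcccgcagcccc
Prc1: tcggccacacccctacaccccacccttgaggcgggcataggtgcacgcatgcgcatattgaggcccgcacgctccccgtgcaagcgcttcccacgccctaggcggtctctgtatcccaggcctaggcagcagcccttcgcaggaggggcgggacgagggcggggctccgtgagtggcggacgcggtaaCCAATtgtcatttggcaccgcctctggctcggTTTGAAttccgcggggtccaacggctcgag
Cdc20: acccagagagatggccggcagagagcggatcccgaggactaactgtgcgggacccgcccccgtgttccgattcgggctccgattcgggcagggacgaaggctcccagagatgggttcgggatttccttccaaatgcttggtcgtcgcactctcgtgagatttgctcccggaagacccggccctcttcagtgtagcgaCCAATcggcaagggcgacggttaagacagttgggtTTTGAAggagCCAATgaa
Cenpa: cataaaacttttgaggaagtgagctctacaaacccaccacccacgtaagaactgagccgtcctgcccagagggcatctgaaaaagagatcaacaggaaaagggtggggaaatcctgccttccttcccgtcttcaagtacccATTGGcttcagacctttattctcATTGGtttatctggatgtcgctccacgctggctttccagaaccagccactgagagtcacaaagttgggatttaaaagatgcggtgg

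A CHR was counted as TTTGAA or TTCGAA on either strand, and a CCAAT box as CCAAT on either strand. In the printed stretches, matches to TTTGAA begin 116 and 98 bases before the start in Mki67, 30 in Prc1 and 18 in Cdc20. Ube2c carries its match on the other strand, 29 bases before the start, and 6 CCAAT matches. Cenpa has CCAAT matches 109 and 86 bases before the start and its CHR lies 16 bases after the start, outside the printed stretch.

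Of 43 member windows, 74.4% held a CHR. The share was 37.9% of 140 windows of other mitosis and microtubule genes, and 19.2% of all 32851 windows in the table. The lists of these other genes, described below, include 22 kinesins of interphase transport and 11 tubulins. CCAAT was found in 72.1% of member windows, in 77 of the 140 and in 37.4% of all, and both motifs together in 62.8%, 25.7% and 7.52%. A CHR within 50 bases of the start occurred in 69.8% of member windows, 24.3% of those of the other genes and 5.31% of all. E2F motifs, counted on either strand as any of TTTCGCG, of TTTGGCG and of TTTCCCG, were found in 16.3% of member windows, in 28 of the 140 and in 5.58% of all. The CRE core TGACGT, the motif of the ATF1 family, was searched after the expression values were seen. It occurred in 9.30% of member windows (Kif15, Cenpe, Ndc80 and Kif18a), 16.4% of the other genes' windows and 7.51% of all. The Cenpa window had no match to it. A match describes these letters only and is not evidence of binding. At 48 h the median difference was 4.62 for 20 measured genes with CHR and CCAAT in a window. It was 4.49 for 12 with no window that held both, some of which, such as Ccnb1, hold a single motif of the pair. The 7 members with neither motif in their windows were Birc5, Kif18a, Mad2l1, Melk, Nuf2, Nusap1 and Pttg1, which include both members under 4-fold (Kif18a and Pttg1) as well as Nusap1 and Birc5, at 65.6-fold and 53.4-fold.

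**Figure D2:**
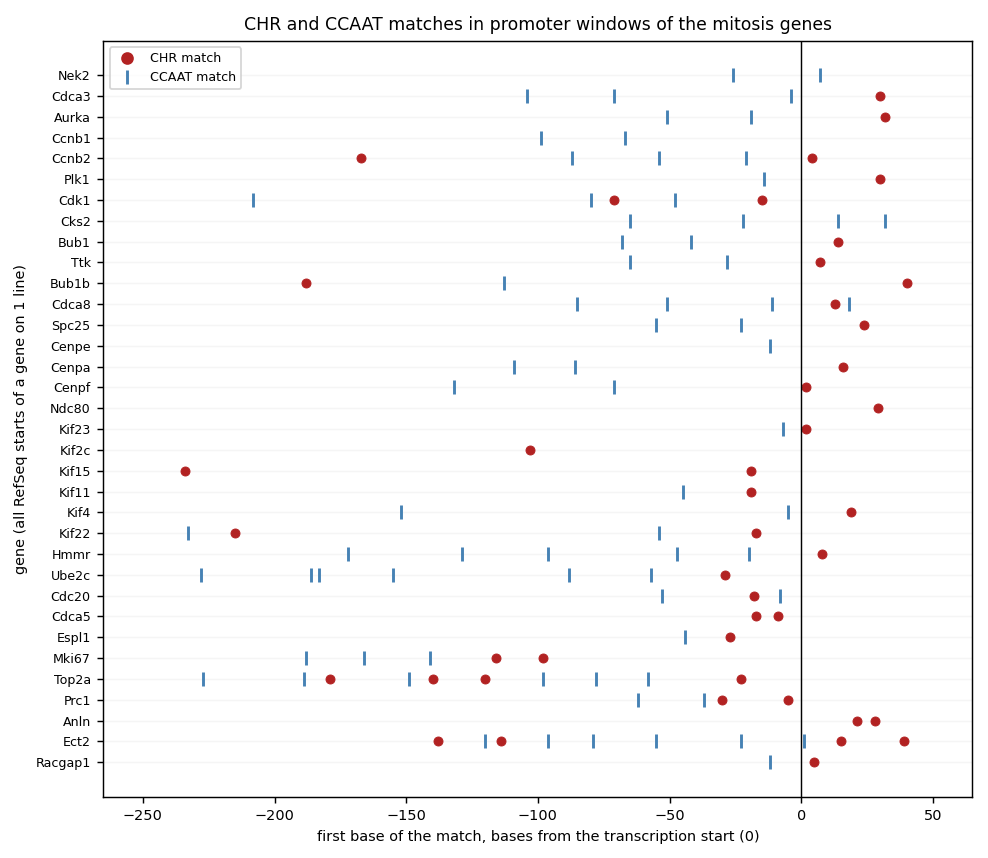
Each row is 1 of the 34 members with a CHR or CCAAT match in a promoter window, grouped by role; the x axis is the distance in bases of the first base of a match from the transcription start, circles are CHR matches and bars are CCAAT matches. CHR matches gather near the start, within 50 bases in 69.8% of member windows.

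Among the kinases and cyclins that start mitosis, 8 of 9 were measured on both 48 h arrays, with a median difference of 4.78. Listing control, low and high dose at 3 h, then control and high dose at 48 h, the level of Cdk1, the catalytic kinase of mitosis, was -1.25, -1.61, -1.67, -0.85 and 2.39. The same order is kept for every gene below. Its cyclin Ccnb1 measured -2.88, -3.12, -3.06, -2.36 and 2.73, and the second B-type cyclin, Ccnb2, measured -2.16, -2.26, -2.71, -2.61 and 2.03. All 3 genes lay close together on the first 4 arrays and were high on the last only, with 48 h differences of 3.24 (9.46-fold), 5.09 (34.1-fold) and 4.64 (24.9-fold). The largest difference among the 8 measured belonged to Cdca3, whose product promotes the destruction of the Wee1 kinase, at -1.64, -1.72, -1.98, -2.31 and 3.65, a 62.1-fold difference at 48 h. The smallest of the 8 was that of Cks2, a small subunit that binds Cdk1, at 2.44 (5.41-fold).

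Aurora A and Polo-like kinase 1 act on centrosomes and spindle poles. Aurka measured -1.73, -1.20, -1.49, -2.28 and 3.09, a 41.5-fold difference at 48 h. Plk1 measured -1.92, -1.79, -2.06, -0.03 and 3.40, so its 48 h control stood apart from the 3 arrays at 3 h. Against that control the high dose was higher by 3.43, and against the 3 h high dose 5.45 higher on the log2 scale. Melk, a kinase abundant in dividing progenitor cells, was 30.2-fold higher at 48 h (4.92). The centrosomal kinase gene Nek2 was above background on the 48 h high-dose array alone, at -0.28, and was at least 36.1-fold higher than in the control.

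The checkpoint genes, whose products hold back anaphase until every kinetochore is attached, were also all higher at 48 h. Bub1, a kinase of that checkpoint, had 10 spots per array and was above background on the 48 h high-dose array alone. Its mean levels were -7.30, -7.34, -7.34, -7.48 and 0.22, and the spots on the last array had an SD of 0.0611 (8 spots used). Bub1 was therefore at least 51.0-fold higher than in the 48 h control. Bub1b, which encodes BubR1, was 24.4-fold higher (4.61), and Mad2l1, which encodes the inhibitor Mad2, 11.7-fold (3.54), with levels of 1.24, 1.30, 1.71, 1.36 and 4.90. The kinase gene Ttk, also called Mps1, was at least 6.55-fold higher.

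Aurora B, Incenp, Birc5 (survivin) and Cdca8 (borealin) form the chromosomal passenger complex, which corrects faulty attachments. Birc5 measured -1.36, -1.67, -1.96, -1.16 and 4.58, a 53.4-fold difference at 48 h and the largest of all measured members between the 48 h and 3 h high-dose arrays (6.54). Cdca8 was 25.3-fold higher at 48 h and the scaffold gene Incenp 4.71-fold, at 1.61, 1.46, 1.31, 1.79 and 4.03. The kinase gene of the complex, Aurkb, was near the detection limit even where it was brightest, at -4.11, which bounds its difference at 2.53-fold or more.

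**Figure D3:**
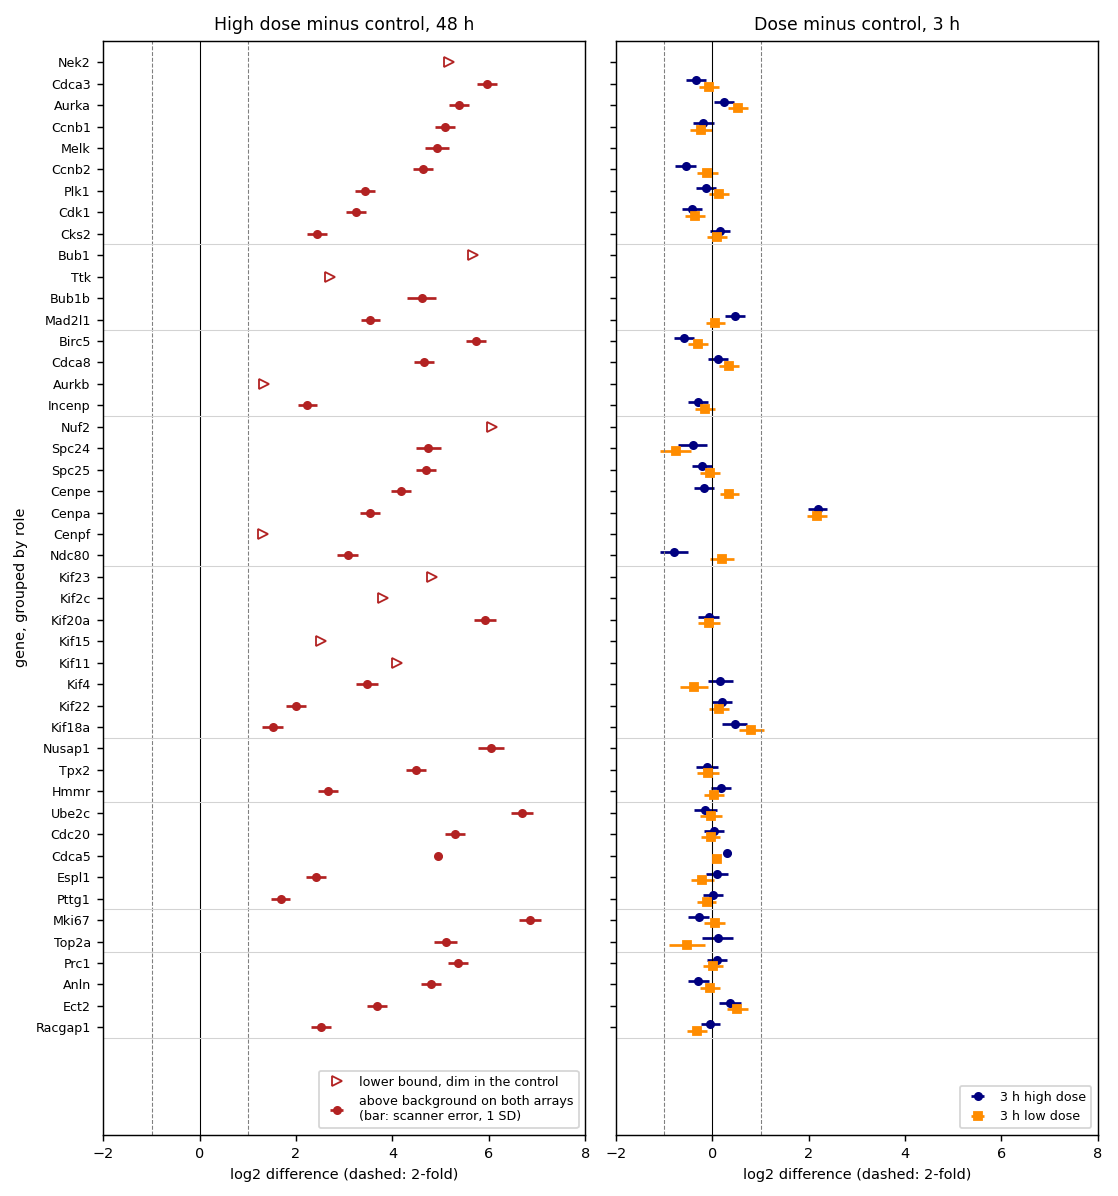
Log2 differences of the 46 members, grouped by role, for high dose minus control at 48 h (left) and for each dose minus control at 3 h (right); filled symbols are genes above background on both arrays with the scanner error as a bar (1 SD), open triangles are lower bounds and dashed lines mark 2-fold. All 48 h values lie right of the 2-fold line, while at 3 h Cenpa alone passes it.

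Kinetochore genes build the link between centromere and microtubule, and 5 of 7 were measured on both 48 h arrays (median 4.17). Subunits of the Ndc80 complex, which grips the microtubule, were all higher. Spc24 was 26.8-fold higher and Spc25 26.0-fold, the latter at 0.17, 0.12, -0.04, 0.25 and 4.95. Ndc80 itself was 8.42-fold higher (3.07), and Nuf2, at 0.62 on the 48 h high-dose array and not above background in the control, was at least 67.2-fold higher. The motor gene Cenpe was higher by 4.17. Cenpf, which encodes a large protein of the outer kinetochore, was above background on only the low-dose array at 3 h, at -4.19, and the high-dose array at 48 h, at -4.14, and its 48 h difference was at least 2.48-fold. Cenpa, the histone H3 variant that marks the centromere, was 11.6-fold higher at 48 h and is taken up again with the 3 h arrays.

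Mitotic kinesins are motors that slide, bundle or shorten spindle microtubules, and 4 of 8 were measured on both 48 h arrays. The median difference of these 4 was 2.74. Kif20a, a motor of the central spindle, was 60.5-fold higher (5.92), the chromokinesins Kif4 and Kif22 11.1-fold and 4.01-fold. Kif18a, which limits microtubule length, was 2.85-fold higher, at -3.81, -3.00, -3.35, -3.38 and -1.87. The remaining 4, Kif11, Kif15, Kif2c and Kif23, were above background on the 48 h high-dose array alone. Kif23, a subunit of centralspindlin, was at least 28.3-fold higher there than in the control, Kif11, which pushes the poles apart, at least 17.1-fold, the depolymerase Kif2c at least 14.0-fold and Kif15 at least 5.74-fold.

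The 3 spindle assembly factors had a median difference of 4.49. Nusap1, which bundles microtubules at chromosomes, was 65.6-fold higher at 48 h (6.04), Tpx2, the activator of Aurora A, 22.5-fold (4.49), and Hmmr 6.36-fold (2.67).

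Genes of anaphase, in which sister chromatids part, had a median difference of 4.95. Ube2c, the ubiquitin-conjugating enzyme of the anaphase-promoting complex, measured -3.10, -3.13, -3.24, -3.76 and 2.93 and was 103-fold higher at 48 h. Its coactivator gene Cdc20 measured -1.09, -1.12, -1.05, -1.94 and 3.36, a 39.4-fold difference. Pttg1, or securin, which the complex marks for destruction, had a smaller difference. It was 3.20-fold higher, at 4.19, 4.07, 4.20, 4.46 and 6.13, and Espl1, the separase that securin holds back, 5.36-fold. Cdca5, or sororin, which guards sister cohesion until anaphase, had 10 spots per array and thus the smallest scanner error, 0.0666, and was 31.0-fold higher (4.95).

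Mki67, a protein coating mitotic chromosomes, measured -2.94, -2.89, -3.23, -3.79 and 3.06, a 116-fold difference at 48 h. Top2a, the topoisomerase that untangles sister DNA, was 34.3-fold higher (5.10). In cytokinesis, the microtubule bundler gene Prc1 was 41.3-fold higher, the scaffold gene Anln, or anillin, 27.9-fold, the exchange factor gene Ect2 12.8-fold, and Racgap1, the partner of Kif23 in centralspindlin, 5.75-fold. Racgap1 measured -0.82, -1.14, -0.86, -0.42 and 2.10, so its 4 lower arrays again lay together and apart from the last.

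Second probes gave a check within the arrays. In all, 13 members had several probes, with 17 probes besides those used. Of these 17, 12 were above background on both 48 h arrays, and 10 of the 12 were at least 2-fold higher at the high dose. The other pair differed from their genes: a dim Cdk1 probe was higher by 0.90, where the brightest probe gave 3.24, and a Tpx2 probe designed on another transcript accession by 0.82, where the brightest gave 4.49. Of the remaining second probes, 4 were above background at the 48 h high dose but not in the 48 h control. A second Nuf2 probe was above background on no array, at -7.11 at the 48 h high dose, where the brightest gave 0.62. The sequences of the probes were not analysed here.

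At 3 h neither dose set the mitosis genes apart from the control. With the high dose, 33 members were measured on both arrays, 1 was at least 2-fold higher and 0 lower, against 1.85% and 1.45% of 14005 genes. The median difference was -0.040, and the values ran from -0.80 for Ndc80 to 2.18 for Cenpa. With the low dose, 1 of 33 was higher and 0 lower, against 0.789% and 0.583% of 14062 genes, with a median of -0.038 and a range from -0.76 for Spc24 to 2.17, again Cenpa. These counts of 1 of 33 are near the background share and are no result about the members as a group. Against the 48 h control in place of the 3 h control, Plk1 was lower at both doses and Ndc80 at the high dose, and Aurka was higher at the low dose by 1.08, with Cenpf higher there by a bound of 1.26. Both 3 h comparisons share the 3 h control array.

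Cenpa was the member that departed most from the common course. Its levels were -0.87 in the 3 h control, 1.30 at the 3 h low dose, 1.31 at the 3 h high dose, -1.71 in the 48 h control and 1.82 at the 48 h high dose. The 3 arrays with doxycycline were high and both controls low, and the groups did not overlap. Both doses at 3 h exceeded the 3 h control, 4.50-fold for the low and 4.54-fold for the high dose, and the 48 h high dose stood 0.51 above the 3 h high dose. Counted after the values were seen, all 3 doxycycline arrays were at least 2-fold above both controls for 1 of 33 members, Cenpa, and for 18 of 13472 genes, or 0.134%. Cenpa has 1 probe on the array, so no second probe checks it.

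Genes that load Cenpa on chromatin did not share its 3 h difference. Between high dose and control at 3 h, the chaperone gene Hjurp differed by 0.22, Mis18a by 0.20 and Oip5 by 0.10. At 48 h they differed by 0.78, 2.13 and 3.44. The gene listed next to Cenpa in the reference table, Slc35f6, measured 1.32, 2.03, 2.03, 1.21 and 0.69. It was higher by less than 2-fold on both dosed arrays at 3 h but lowest on the 48 h high-dose array. Of the other nearby genes with levels, Kcnk3 measured 3.11, 3.32, 3.37, 2.69 and 2.15. Dpysl5 measured 3.91, 3.86, 3.97, 3.59 and 4.49. Of the other mitosis and microtubule genes examined, Tubb6, a beta-tubulin gene, was the only case out of 129 in which all dosed arrays exceeded both controls 2-fold, at 3.78, 5.11, 5.17, 3.52 and 5.58. With any margin above both controls, 7 of 33 members (21.2%) had that order, against 14.1% of all genes.

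**Figure D4:**
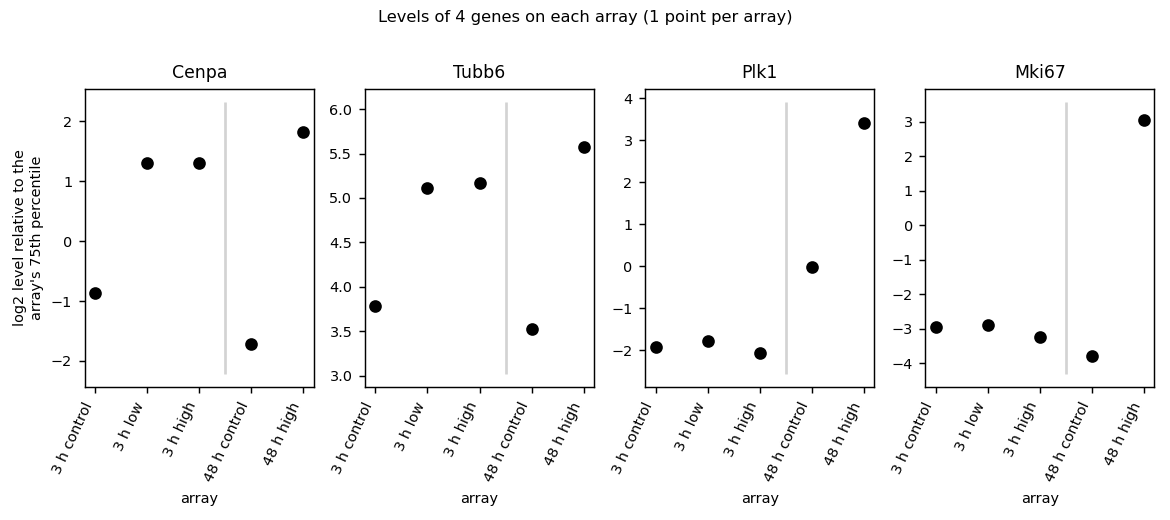
Log2 levels of Cenpa, Tubb6, Plk1 and Mki67 on each of the 5 arrays, 1 point per array, with a separate y range for each gene. Cenpa and Tubb6 are high on the 3 doxycycline arrays, Plk1 is raised in the 48 h control, and Mki67 is high on the 48 h high-dose array only.

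High and low dose at 3 h differed little from each other. Of 34 members measured on both, 0 had a level 2-fold or more above the low dose, against 1.27% of 14349 genes, and 1 was lower, Ndc80 at -1.01, against 0.913%. Cenpf, above background at the low dose and not at the high dose, was lower at the high dose by a bound of -1.31. Between the controls, 1 of 33 members was at least 2-fold higher at 48 h, Plk1 at 1.90 (3.72-fold), against 2.50% of 14018 genes, and 0 were lower, against 1.36%. Kif20a had the lowest value, -0.89, and the median was 0.088. For the 33 members above background on all arrays, the range over the 4 arrays other than the 48 h high dose was under 1 for 29 (median 0.67), and exceeded it for Cenpa (3.02), Plk1 (2.03), Ndc80 (1.18) and Aurka (1.08). Between the high-dose arrays, the 48 h level exceeded the 3 h level by 2-fold or more for 34 of 35 measured members. The share among 13772 genes was 9.17%. Cenpa was the exception. No member was that much lower, against 8.38% of genes, and the members' median was 4.55. All 11 bounds passed 2-fold, but a gene is bounded upward only if it is bright on the 48 h high-dose array. The share of all such bounds that passed was not computed between these arrays. Against the 48 h control it was 76.4%, so the 11 bounds do not set the members apart.

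Other genes of mitosis and microtubules, given in lists that exclude the 46, split by function at 48 h. Of 151 listed genes, which include 22 kinesins of interphase transport and 11 tubulins, 149 were on the array. On both 48 h arrays 133 were measured. Of these 133, 59 were at least 2-fold higher, 2 lower and 72 within 2-fold, with a median of 0.78. Another 14 genes had bounds past 2-fold upward and 1 downward. All 11 tubulin genes were higher, from 1.12 for Tubb4b to 2.21 for Tuba1c. In the list of mitotic entry and Cdk1 control, 8 of 12 were higher, from Ccna2, the cyclin that precedes cyclin B, at 6.26, down to the Cdk1 inhibitor kinase gene Wee1 at -0.14. The phosphatase gene Cdc25c was at least 27.0-fold higher and the centriole kinase gene Plk4 at least 4.44-fold.

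Among regulators of mitotic transcription, 2 of 11 were higher, a share not far from the 9.94% of all genes. They were the activators Foxm1 at 4.45 (-2.65, -2.24, -2.26, -3.00 and 1.45) and Mybl2, encoding B-Myb, at 3.51 (-1.81, -1.79, -1.81, -1.69 and 1.82). Both were highest on the 48 h high-dose array. The core MuvB subunits were within 2-fold, with Lin9 at 0.67, Lin54 at 0.51, Lin37 at -0.17 and Lin52, the lowest of the list, at -0.23.

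Condensin and cohesin, both ring complexes on chromosomes, differed in their counts. Of 7 measured condensin genes, which compact mitotic chromosomes, 5 were higher, led by Ncaph at 3.93, and Ncapg was at least 3.50-fold higher, while Ncapd3 (0.77) and Smc4 (0.31) were within 2-fold. Of 11 cohesin genes, 2 were higher, the shugoshins Sgo2a at 3.87 and Sgo1 at 3.69, which protect cohesin at centromeres. The ring subunits Smc1a, Smc3 and Rad21, which also act outside mitosis, differed by -0.02, 0.11 and 0.14, and Stag2 was lowest at -0.75. The share of 2 in 11 is not far from the 9.94% of all genes.

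The other kinetochore and centromere genes were higher in 17 of 27 measured, and another 4 by bounds, with a median of 1.73. They ran from Nsl1, a subunit of the Mis12 complex, at 5.18 to Cenpc1 at -0.03. Within that complex, Pmf1 differed by 2.23, Dsn1 by 0.91 and Mis12 by 0.22. The checkpoint partners Bub3 and Mad1l1 differed by 0.73 and 0.54, beside the larger values of Bub1b and Mad2l1 given above. Of the other spindle, centrosome and cytokinesis genes, 10 of 17 were higher and 7 more by bounds, with Shcbp1 at 5.53, Numa1 at -0.73 and the bound for Pimreg at 166-fold. Cep55, an abscission gene, differed by 0.27.

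Core subunits of the anaphase-promoting complex did not follow its partners Ube2c and Cdc20. In that list 2 of 16 were higher, near the 9.94% of all genes, namely the inhibitor gene Fbxo5 (Emi1) at 3.04 and the chain-elongating enzyme gene Ube2s at 1.08. Anapc16 had the lowest measured value, -0.28, and Anapc10, not above background at the 48 h high dose, was at least 4.08-fold lower. Kinesins of interphase transport gave 2 higher (Kif26b at 1.48 and Kif26a at 1.27) and 2 lower (Kif16b at -2.03 and Kif1c at -1.12) of 21, with a median of -0.09, shares close to the 9.94% and 10.1% of all genes.

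**Figure D5:**
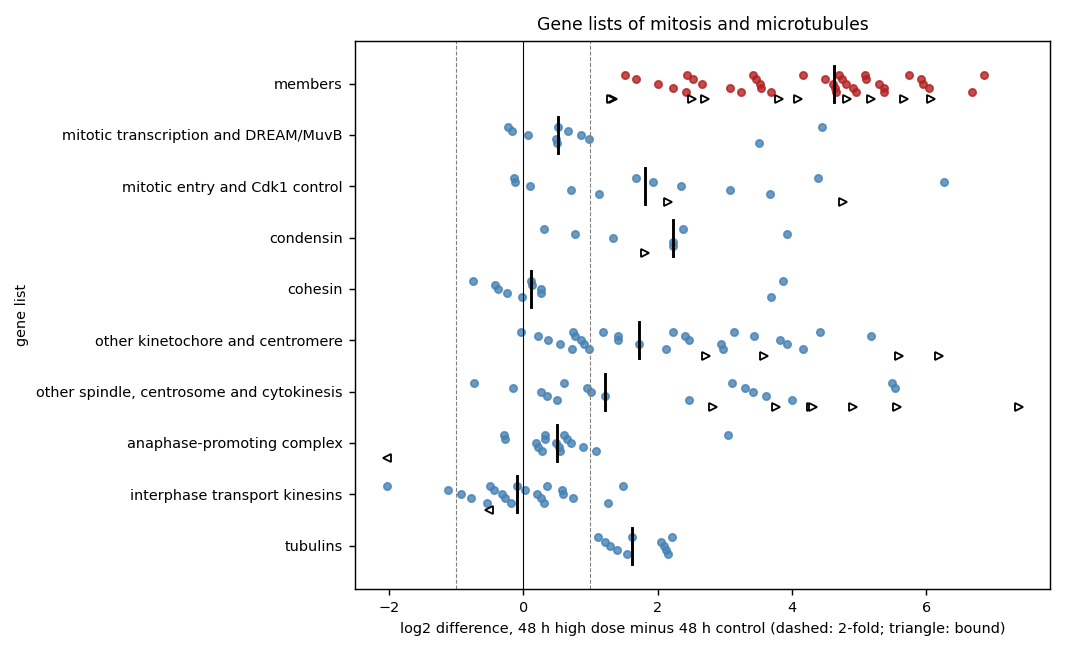
Log2 differences between high dose and control at 48 h for the members and 9 further gene lists, 1 point per gene above background on both arrays, with triangles for bounds and a thick line for each list's median. The members centre on 4.62 and the tubulins on 1.63, whereas cohesin (0.11), the anaphase-promoting complex (0.51) and transport kinesins (-0.09) centre within the dashed 2-fold lines.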

How the data were processed

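Per the labels' protocols, RNeasy Plus Mini kits gave the RNA and Cy3 was the dye. The deposited values are scanner intensities per spot, background-subtracted within each array by Agilent Feature Extraction 10.7.3.1, per the file headers and the submitters' processing notes, and not normalised between arrays. The 5 arrays shared 1 slide and 1 scan. Values in the deposited table equalled that array's linear processed signal within 0.001 on the log2 scale for 99.99% of values, so it is linear, neither centred nor scaled between arrays, with medians from 24.1 to 38.6. Of 59305 non-control spots per array, 111 to 146 outlier spots were left out and 0 were saturated. Spots of a probe were averaged on the log2 scale. RefSeq accessions gave 1 symbol to 26413 probes, several to 0 and none to 29268. A difference was called at 2-fold where the gene was above background on both arrays. Otherwise the bound compares the brighter array's level with the dim array's lowest level above background, or with that probe's level there if higher. Positions of promoters are those of GRCm38.p6; the arrays were designed on an older build and were matched by name only. Python 3.11.15, pandas 2.3.3 and numpy 2.4.6 were used, also for the quantile alternative, and R 4.3.3 with limma 3.58.1 for the normexp alternative. The call rule was tested on simulated data. A fit with additive terms for time and dose was left out, since an effect at 1 time only would count there as error. The background-corrected alternative, normexp with an offset of 50, used median signals, because mean signals are not in the files used here.

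The members and lists were chosen with earlier results of these data known. Named were, in each role group, the members with the largest and smallest differences at 48 h, catalytic subunits, cyclins, Mki67 and Top2a. All members with a bound, disagreeing probes or a 2-fold difference at 3 h or between controls were named too. In the other lists of mitosis and microtubule genes, the genes with the largest and smallest difference were named. Cell type markers and reference genes did not all follow that rule. Further genes named in those lists, such as the cohesin ring, MuvB, Mis12 and Cenpa loading genes, and the search for CRE were chosen after their values were seen.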

Additional observations from a re-analysis of the deposited data

Results flagged for a closer look

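The median difference of the mitosis genes between high dose and control had opposite signs at the sampled times, 4.62 at 48 h over 36 measured genes and -0.040 at 3 h over 33. The difference between these medians was not tested, since each group has 1 array.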

How the results depend on the processing

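Under each of 7 alternative settings all measured members stayed at least 2-fold higher at 48 h, down to 1.04 (Kif18a, normexp background correction). The normexp setting moved 31 of the 36 measured differences by at least their scanner error. It adds an offset of 50 to every corrected signal, and an added constant narrows the log2 differences of dim probes most. How much of these shifts comes from the offset was not tested. The normexp setting left 8 members in place of 10 with bounds past 2-fold at 48 h, and 9 in place of 11 between the high-dose arrays. With normexp the median at 48 h was 3.54, and that between the high-dose arrays 3.62; with the 3 h control the former was 4.28, and with the mean of all probes the latter was 4.26. Without the filter on dim probes, all 46 members were counted, signals below background included. Of them, 3 were at least 2-fold higher at the 3 h high dose, against 820 of 20016 genes, and 2 at the low dose, against 486. Between the controls (48 h over 3 h) 2 were higher, against 867 genes. At high against low dose 2 were lower, against 524 genes. These small counts are no result about the members as a group. The count lower at high against low dose was 0 with normexp, with the deposited value table and at a 3-fold threshold. Ndc80 was at -0.99 in the value table, and the lowest member value with normexp was -0.39. The part of the normexp offset of 50 in that lowest value was not tested. With the 48 h control in place of the 3 h control, 2 of 34 members were lower at the 3 h high dose, against 443 of 14324 genes. At the low dose 2 of 36 were higher and 1 lower, against 302 and 464 of 14333 genes. Between the controls 1 member was lower with each array centred on its median, against 280 of 14018 genes. With the mean of all probes it was also 1, against 199 of 14025 genes. Median centring also moved the median of all genes at 3 h high dose from -0.01 to -0.14, with 40.5% of called genes higher in place of 56.1%, and between the controls from 0.01 to -0.13, with 47.4% in place of 64.8%; Cenpa then stood at 2.06 at the 3 h high dose. Of 147 alternative values for these counts and medians, 131 kept their reading. No paired analysis was possible because each group has 1 array. Genes near background, such as Aurkb and Cenpf, have bounds that understate any larger difference, and the number of arrays limits all precision.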
